A study of Mus musculus with 3 samples.

Results

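The genes described here are 85 mouse genes whose leading transcript changed between day 4 EBs given DMSO and day 4 EBs given C2 ceramide. The leading transcript is the one with the largest part of the gene's RNA. DMSO or C2 ceramide was given from day 3 to day 4. For each gene the share of a transcript is its TPM divided by the summed TPM of all transcripts of that gene. TPM is a transcript level corrected for transcript length and library depth. Genes were counted when they had at least 100 estimated counts in both day 4 libraries, and a gene was kept when a transcript that led in either library changed its share by at least 50 percentage points. This left 85 of 11265 genes counted, or 0.755%, out of 55487 genes in the table. In 84 of the 85 the leading transcript was a different one in the day 4 libraries, and these genes are called switching genes below. The transcript that met the rule is called the switching transcript. It gained share with C2 ceramide in 43 genes and lost share in 42. The genes were chosen by their TPM shares in the day 4 libraries, so the change of those shares is a description and was not tested.

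RNA came from EBs, aggregates of mouse ES cells in which the first germ layers form. The wild-type ES line E14K was used in every group, and EBs were formed in hanging drops without LIF, the factor that keeps ES cells undifferentiated. The 3 groups were EBs collected on day 3 with DMSO as vehicle, EBs on day 4 with DMSO, and EBs on day 4 given C2 ceramide at 30 μM from the start of day 3. C2 ceramide is a ceramide with a short acyl chain that crosses the cell membrane. Each group was 1 library from EBs of 1 line, with total counts of 33619197 and 35078820 for the DMSO groups of day 3 and day 4 and 35290094 for the C2 ceramide group. There was no replicate, so no difference between conditions was tested, and the DMSO day 3 library, which did not enter the rule, is given beside the day 4 libraries as a check.

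One gene can yield several transcripts, by starting at different promoters, by joining different exons, by keeping an intron, or by ending at different polyadenylation sites. Transcripts can differ in the protein they encode, or share the coding sequence and differ in their untranslated ends, and a transcript with a retained intron is often not translated into the full protein. Short reads seldom cover a whole transcript, so a program divides the reads of a gene among its annotated transcripts, and transcripts that share most of their bases are told apart by few reads.

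The sequences below show what separated the transcripts in 3 genes whose switch was as large in counts as in TPM. They come from the GENCODE M21 annotation and transcripts of GRCm38, in the direction of transcription. Capitals mark coding bases, stop codon included, found in 1 transcript of the pair, and up to 12 coding bases on either side of them are in lower case. Klhl18 encodes an adaptor of a ubiquitin ligase, and its gaining transcript carried 15 extra coding bases at chr9:110436234-110436248 on the minus strand. Fmnl2 encodes a formin that builds actin filaments, and its gaining transcript kept 47 bases at chr2:53130459-53130505 on the plus strand, at the end of its coding sequence. Atp2a3 encodes the calcium pump SERCA3, and the gaining transcript had an exon of 73 bases at chr11:72989475-72989547 on the plus strand.
Klhl18, gained with C2 ceramide: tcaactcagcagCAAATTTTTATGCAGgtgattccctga
Fmnl2, gained with C2 ceramide: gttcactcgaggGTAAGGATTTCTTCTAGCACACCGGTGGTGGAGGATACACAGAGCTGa
Atp2a3, gained with C2 ceramide: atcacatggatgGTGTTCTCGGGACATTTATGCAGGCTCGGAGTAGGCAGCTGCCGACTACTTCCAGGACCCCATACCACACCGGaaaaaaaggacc

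Counts were read beside TPM for every switching gene, since a share of estimated counts is not divided by length. The count share of the same transcript also changed by at least 50 points in 48 of the 85 genes, by 10 to under 50 points in 18 and by under 10 points in 19. In 73 of the 85 the exact 95% intervals of the count share of DMSO day 4 and C2 ceramide did not overlap. The genes were chosen by shares from these same libraries, so intervals apart were largely set by the choice and are not a result. The number over all genes counted is not given here. The intervals cover counting error and leave out the error of dividing reads among transcripts and PCR copies of 1 molecule. Of the 48 genes with 50 points by both measures, 26 gained and 22 lost the switching transcript with C2 ceramide.

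**Figure D1:**
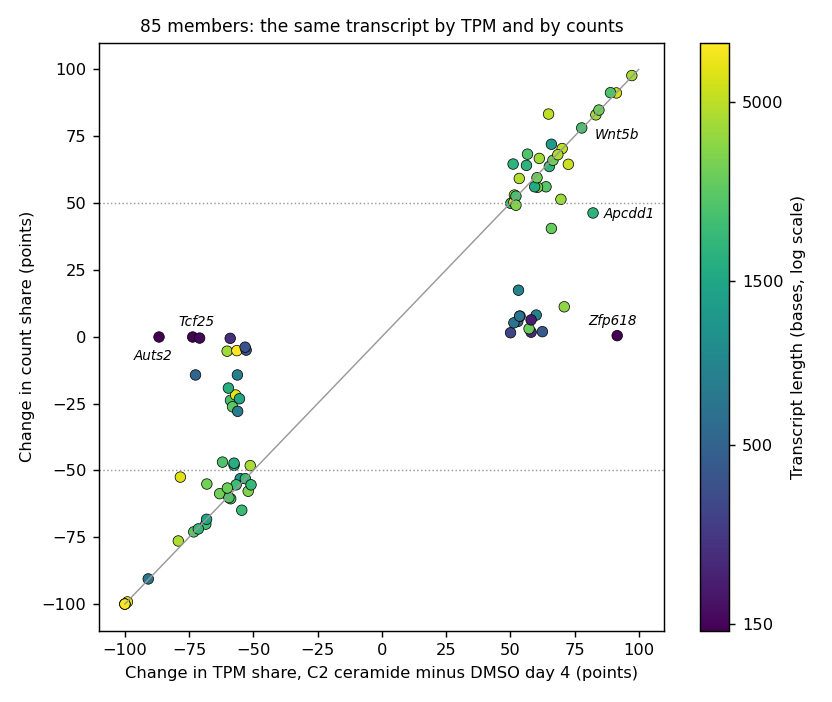
Change in the share of the switching transcript between DMSO day 4 and C2 ceramide day 4 in percentage points, by TPM on the horizontal axis and by estimated counts on the vertical axis, 1 point per switching gene, coloured by transcript length in bases on a log scale. The 48 genes past 50 points by both measures lie outside the dotted lines, and 19 genes, most with dark points for short transcripts, lie within 10 points of 0 by counts.

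The same rule was applied to the other pairs of libraries. DMSO day 3 against DMSO day 4 gave 83 of 11177 genes, or 0.743%, and DMSO day 3 against C2 ceramide day 4 gave 91 of 11197, or 0.813%. The pairs share libraries and are not independent. By the count share alone the rule found 68 genes between the day 4 libraries, 75 between the DMSO libraries and 76 between DMSO day 3 and C2 ceramide. The number of switching genes between C2 ceramide and DMSO was thus similar to that between 2 DMSO libraries of different days. Of the 85 switching genes, 28 also met the rule between the DMSO libraries and 26 between DMSO day 3 and C2 ceramide, 2 of them in both, and 33 met it between the day 4 libraries alone.

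Switching genes had few counts. The median of the lower day 4 gene count was 163 in the switching genes and 1105 in all genes counted. Among genes with 100 to under 200 counts, 51 of 1201 switched between the day 4 libraries. With 200 to under 500 counts 30 of 2112 switched, with 500 to under 1000 counts 2 of 2017, with 1000 to under 2000 counts 1 of 2175, and above that 1 of 3760. In the DMSO pair the same classes held 49, 28, 3, 0 and 3 genes. Low-count genes made up most of the genes found in each pair. The 4 switching genes with at least 500 counts in both day 4 libraries were Tcf25, Ezh1, Lpar1 and Auts2.

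**Figure D2:**
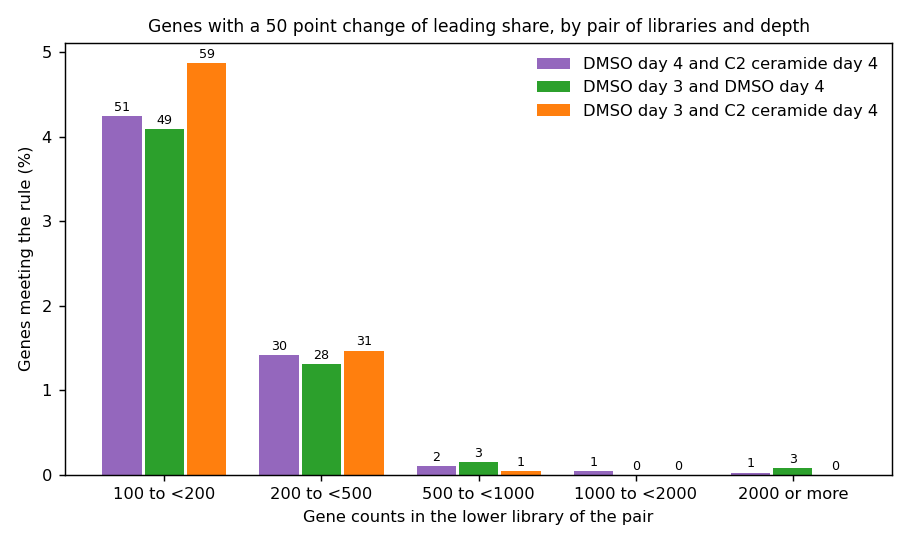
Percent of genes that met the 50 point rule, by gene counts in the lower library of the pair, for the 3 pairs of libraries, with the number of genes above each bar. In the class of 100 to under 200 counts the rule found 51, 49 and 59 genes, and in the class of 2000 or more counts 1, 3 and 0.

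The share on DMSO day 3 was then set beside both day 4 shares. In 42 of the 85 genes the day 3 share lay within 25 points of DMSO day 4 and not of C2 ceramide, in 38 it lay within 25 points of C2 ceramide and not of DMSO day 4, and in 5 it lay between or beyond them. Of the 72 genes with at least 100 counts on DMSO day 3, 35 lay near DMSO day 4, 32 near C2 ceramide and 5 elsewhere. The library that stood apart from the other two was therefore the C2 ceramide library in about as many genes as the DMSO day 4 library. Among the 48 genes that also switched by counts, 24 lay near DMSO day 4, 19 near C2 ceramide and 5 elsewhere. In 21 of these 48 the day 3 interval of the count share overlapped neither day 4 interval. The intervals again leave out the error of dividing reads, and the number over all genes counted is not given. The 21 genes are therefore a description.

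**Figure D3:**
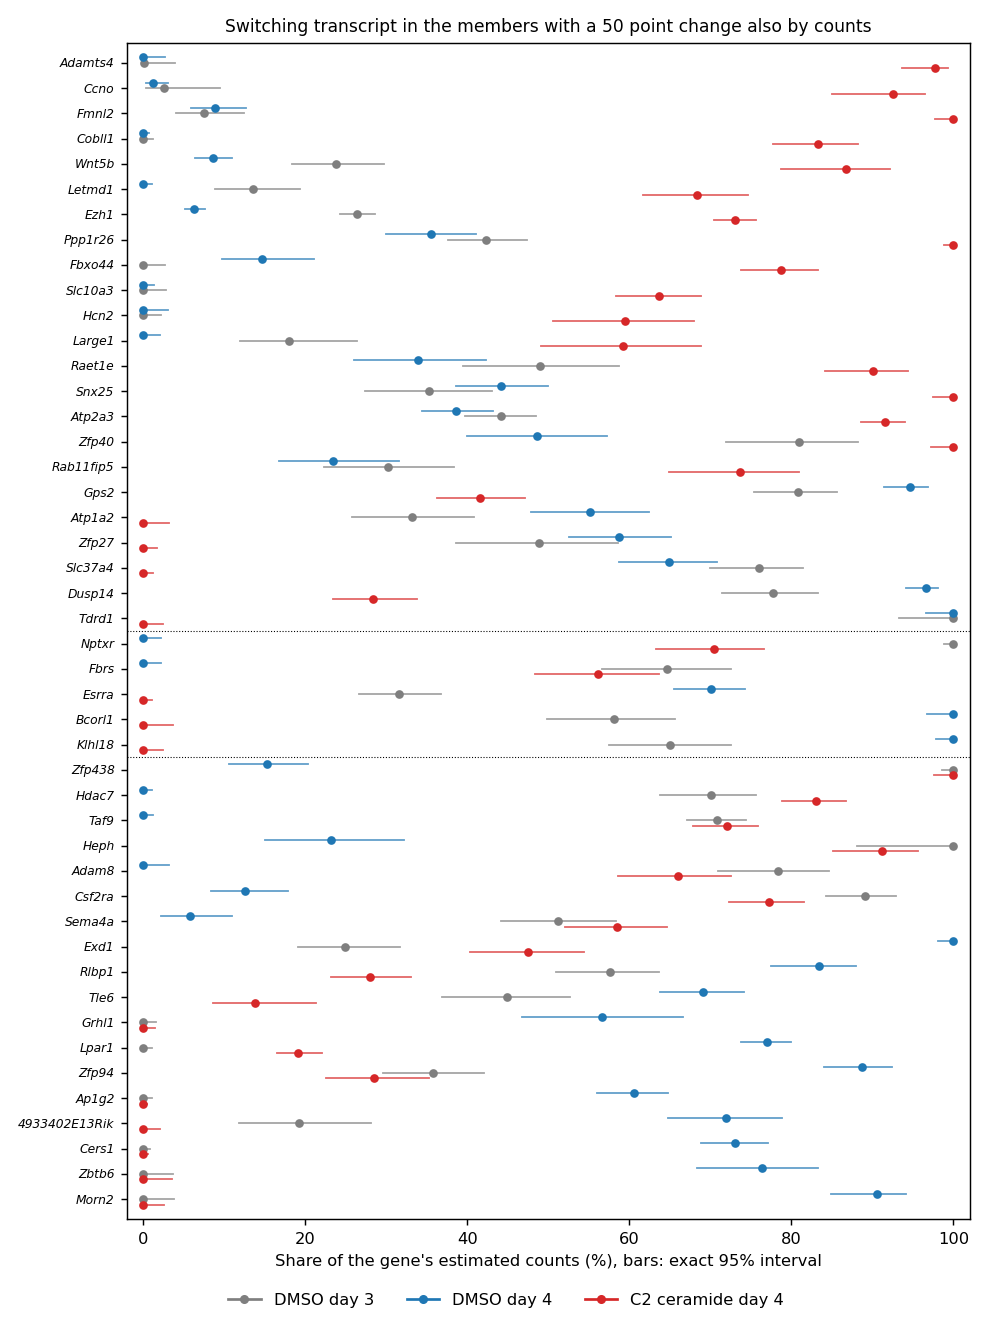
Share of the gene's estimated counts held by the switching transcript in each of the 3 libraries, in percent with exact 95% intervals, for 46 of the 48 genes past 50 points by counts as well. Dotted lines separate the 23 genes whose day 3 TPM share lay near DMSO day 4 (top), the 5 between or beyond (middle) and the 18 near C2 ceramide (bottom).

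Wnt5b (ENSMUSG00000030170.14, chr6:119432531-119544347, minus strand) had the lowest gene ratio by counts among the switching genes. It encodes a secreted Wnt ligand that acts largely outside the β-catenin pathway. Its gene counts were 232 on DMSO day 3, 623 on DMSO day 4 and 111 with C2 ceramide. The transcript of 359 codons held 176.9, 465.4 and 14.8 counts in that order, and the transcript of 372 codons held 55.1, 53.4 and 96.2. Another transcript, which starts near the gaining one, held 0, 104.1 and 0. The C2 ceramide library was low in the first transcript, and DMSO day 4 was the one library with counts of this other one. The first exons of the pair lie 94932 bases apart, and the gaining transcript has 39 more coding bases. The longer-coding transcript held 22.8% of the TPM on DMSO day 3, 8.3% on DMSO day 4 and 86.0% with C2 ceramide, and the gene as a whole was lower with C2 ceramide by a log2 ratio of -2.50 in CPM, gene counts scaled to the library total (95% counting interval -2.80 to -2.20). In bulk EBs, fewer cells of a type and less RNA per cell cannot be told apart.

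Ccno, which encodes cyclin O, known for its part in making multiciliated cells, moved from a spliced coding transcript to one with a retained intron. The gene (chr13:112987802-112990777, plus strand) had 74 counts on DMSO day 3, 340 on DMSO day 4 and 101 with C2 ceramide. The spliced transcript held 72.1, 334.5 and 7.6 of them and the retained intron transcript 1.9, 4.1 and 93.4. Almost all counts of both DMSO libraries were assigned to the spliced transcript, and almost all of the C2 ceramide library to the other. Reads at the intron itself were not examined. The count share of the retained intron transcript was 2.6% on DMSO day 3 (95% interval 0.3 to 9.4), 1.2% on DMSO day 4 (0.3 to 3.0) and 92.5% with C2 ceramide (85 to 96.5).

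Apcdd1, which encodes a membrane-bound inhibitor of Wnt signalling, had 193, 678 and 136 counts in the same order of libraries. Its losing transcript held 72.6, 294.0 and 0 counts, and its gaining transcript, with the same 514 codons, 0, 0 and 63.0. Another transcript, of 10879 bases, held 114.4, 378.0 and 70.0 and led by counts in all 3 libraries, with 59.3%, 55.7% and 51.5%. The gaining transcript was thus found with C2 ceramide and in neither DMSO library. The count share of the gaining transcript was 46.3% with C2 ceramide (95% interval 37.7 to 55.1), under the 50 points that its TPM share passed. The exact interval reached up to 1.9% on DMSO day 3 and 0.5% on DMSO day 4, where no count was assigned.

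Ezh1, a catalytic subunit of the Polycomb complex that methylates histone H3, had 1641, 1423 and 1160 counts in the same order. The losing transcript held 1034.5, 1159.4 and 197.4 counts and the gaining one 433.4, 88.8 and 846.6. This made the gaining transcript the minor form in both DMSO libraries and the major form with C2 ceramide, with a count share of 26.4%, 6.2% and 73.0%. The pair has the same introns and differs by 14 bases at the ends, and their annotated coding sequences are 750 and 747 codons long.

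Lpar1, a receptor for lysophosphatidic acid, had 332, 772 and 827 counts. The losing transcript held 0, 594.2 and 158.3 and the gaining one 285.5, 0 and 241.2. The DMSO day 4 library was the one without the gaining transcript, while DMSO day 3 was without the losing one. Of the other coding transcripts, one held 0, 143.7 and 205.3 counts and another 38.3, 29.6 and 218.3. The losing and gaining transcripts encode the same 364 codons and differ in the first exon, with starts 196 bases apart. The gene CPM differed by a log2 ratio of 0.09 (95% counting interval -0.05 to 0.23), so the switch went with no difference of the gene total beyond counting error.

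Cers1, which encodes a ceramide synthase of the brain and muscle, had 453.3, 473.4 and 579.9 counts. Its losing transcript held 345.8 counts on DMSO day 4 and 0 in both other libraries, and the gaining one held 453.3, 127.7 and 575.3. The C2 ceramide and DMSO day 3 libraries were alike here and DMSO day 4 stood apart. The pair has the same introns and differs by 17 bases at the ends, yet the annotated coding sequences share no base. The coding sequence of the losing transcript, 350 codons, lies at chr8:70315860-70329580, and that of the gaining transcript, 357 codons, at chr8:70329982-70331477, inside the neighbouring gene Gdf1 (chr8:70329817-70331587), which encodes a ligand of the Nodal family. Cers1 and Gdf1 overlap on the same strand, so their reads cannot be told apart there, and Gdf1 itself had 189.7, 77.6 and 87.1 counts.

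Hdac7, a class IIa histone deacetylase, had 246, 345 and 361 counts. The gaining transcript of 938 codons held 172.4, 0 and 299.8, and the losing transcript of 851 codons 0, 82.5 and 0. Of the other transcripts, one held 10.4, 84.9 and 0 counts, another 35.8, 76.2 and 0, and a further one 0, 48.6 and 44.1. In the losing and gaining transcripts DMSO day 4 again stood apart from both other libraries. In the further one DMSO day 3 stood apart. The first exons of the pair lie 16904 bases apart.

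**Figure D4:**
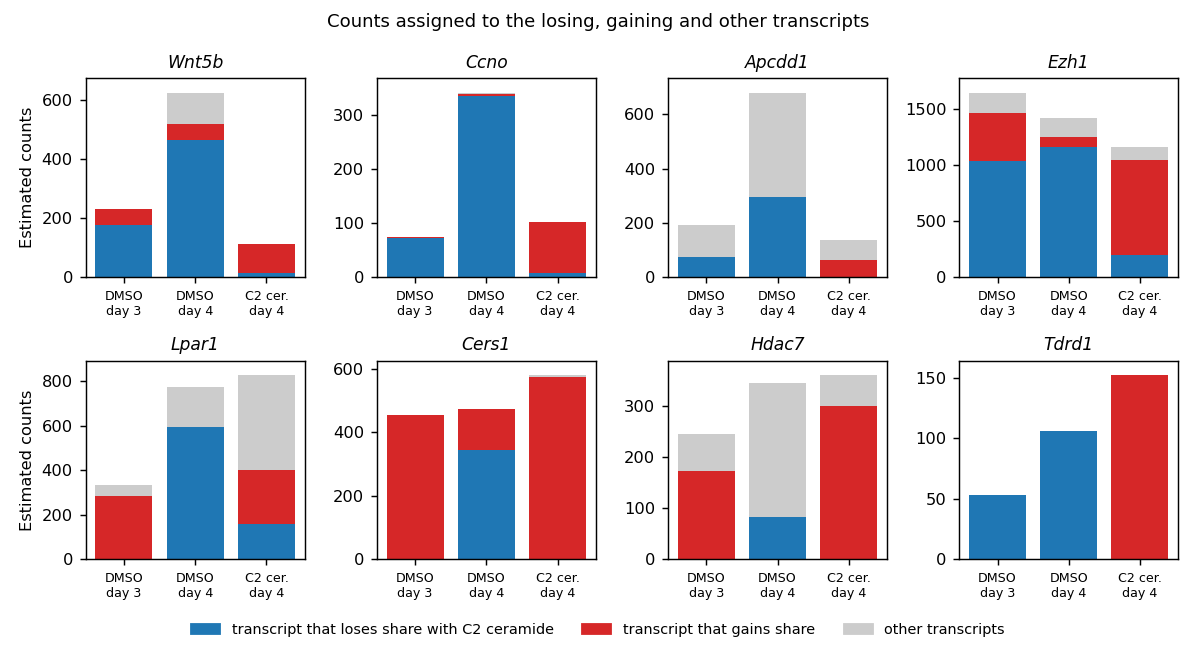
Estimated counts of 8 switching genes in the 3 libraries, divided into the transcript that lost share with C2 ceramide (blue), the one that gained (red) and all others (grey). Wnt5b, Ccno, Apcdd1, Ezh1 and Tdrd1 had a C2 ceramide bar unlike both DMSO bars, and Cers1 and Hdac7 had a DMSO day 4 bar unlike the other two.

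The structures of the losing and gaining transcripts were compared in the 84 genes whose transcripts were found in the annotation, all but Esrra. Of these, 23 pairs, or 27.4%, had starts within 50 bases of each other and 45, or 53.6%, had ends within 50 bases. In the 47 pairs that also switched by counts, 15 shared the start, 38, or 80.9%, shared the end, and every pair shared at least 90% of the bases of the shorter transcript. For the most abundant pair of transcripts in 9330 other genes counted, 33% shared the start, 25.8% the end, and 53.6% shared at least 90% of the shorter one. Starts more than 50 bases apart were found in 32 of 47 of the pairs that switched by counts and in 6252 of the 9330 other genes, a similar share. The median number of bases not shared was 279 in these 47 pairs, 480.5 in all 84 and 1603 in the other genes. The 47 pairs had to change by 50 points in both shares, which favours pairs of similar length. The pairs of the other genes were chosen by abundance with no such filter, so the shares are not of like pairs. These are descriptions, and no test was made.

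Many switches left the encoded protein as annotated. Among the 42 pairs that switched by counts and were both coding, 23, or 54.8%, had an identical coding sequence and 19 a different one. Among all 63 pairs of switching genes that were both coding, 28, or 44.4%, had an identical one, against 18.9% in the other genes. The pairs of the other genes were chosen by abundance and not by change of share, so the shares are not of like pairs. Tdrd1, a Tudor protein of the piRNA pathway in germ cells, had 53, 106 and 152 counts, and each library placed them in 1 transcript. The losing one held 53, 106 and 0 and the gaining one 0, 0 and 152. Both encode 1172 codons and differ by 85 bases, with starts 66 bases apart. Ap1g2, a subunit of a clathrin adaptor, had a losing transcript with 0, 297.5 and 0 counts and a gaining one with 251.6, 113.7 and 633.6, both of 791 codons. Zbtb6 and Zfp438, zinc finger proteins, had the same layout. The losing transcript of Zbtb6 held 0, 103.9 and 0 counts and that of Zfp438 0, 192.6 and 0, with 423 and 798 codons on both sides of the switch.

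In 8 pairs, all of which switched by counts, the introns were identical and the transcripts differed at their ends, against 0.6% of the other genes. The pairs of the other genes were not chosen by change of share, so these are again not like pairs. The 8 pairs included Ezh1, Cers1, Taf9, Ppp1r26, Nptxr, Morn2 and Adamts4. The transcripts of Ppp1r26 and Adamts4 differed by 3 bases and those of Morn2 by 12. Adamts4, a protease that cuts aggrecan, had losing counts of 91.9, 126.7 and 0 and gaining counts of 0.1, 0 and 154.4. Morn2 had losing counts of 0, 158.5 and 0 and gaining counts of 96.0, 16.5 and 145.0, with annotated coding sequences of 79 and 152 codons. In Adamts4 and Morn2 most counts of each day 4 library thus lay in 1 transcript of a pair that differed by few bases.

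The other 19 pairs encode different proteins as annotated. Klhl18 had 167, 167 and 154 counts, a losing transcript with 108.6, 167.0 and 0 and a gaining one with 56.4, 0 and 154.0, so the form with the 15 extra coding bases shown above was assigned no count on DMSO day 4, part of the counts on DMSO day 3 and all of them with C2 ceramide. The coding sequences are 574 and 579 codons long. Fmnl2 had a losing transcript with 139.7, 237.4 and 0 counts and a gaining one with 13.1, 25.7 and 156.0, of 1083 and 1086 codons, and both DMSO libraries were alike. Atp2a3 had losing counts of 115.9, 255.6 and 35.6 and gaining counts of 223.3, 191.6 and 402.3, of 999 and 1038 codons. Its gaining transcript had a count share of 44.1% on DMSO day 3 (95% interval 39.7 to 48.5), 38.6% on DMSO day 4 (34.4 to 43.2) and 91.6% with C2 ceramide (88.6 to 94.0).

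By type of leading transcript, 60 of the 85 genes moved from a coding to another coding transcript, 13 from coding to non-coding, 7 from non-coding to coding, and 5 between non-coding ones. Nonsense-mediated decay transcripts were counted as non-coding. Protein-coding transcripts led in 85.9% of the switching genes on DMSO day 4 and in 78.8% with C2 ceramide, against 89.1% and 88.8% of all genes counted. Retained intron transcripts led in 5 switching genes on DMSO day 4 and in 12 with C2 ceramide, against 248 and 274 of the 11265 genes counted. Of the 48 genes that also switched by counts, 43 moved between coding transcripts, 4 from coding to non-coding and 1 between non-coding ones. Sema4a, which encodes a semaphorin, was one of the 4, and its retained intron transcript held 100.8, 7.4 and 146.2 of 197, 127 and 250 counts, high on DMSO day 3 as well as with C2 ceramide.

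Many of the other switches rested on few counts of short transcripts. The switching transcript was under 1000 bases in 20 of the 85 genes, and in 1 of the 48 that also switched by counts. It had under 10 counts in both day 4 libraries in 11 genes and under 30 in 20. Dividing counts by TPM gives the length by which each transcript was divided, which fell well below the transcript's own length for short ones. In Tcf25, which has the most counts of the switching genes, a processed transcript of 143 bases was divided by 1.19 bases on DMSO day 4. Its 11.7 counts of 8605 became 309 TPM and 73.6% of the gene's TPM, with 0 counts in both other libraries. In Auts2, a gene of neural development, a 144-base transcript with 0.9 of 721 counts on DMSO day 4 was divided by 0.991 bases and made up 86.7% of the TPM. In Zfp618 a 144-base transcript with 1.0 of 262 counts was divided by 0.995 bases and made up 91.6% of the TPM with C2 ceramide.

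These short transcripts are printed whole, since they carry the share change of 3 genes, and their bases in capitals are those outside the exons of the transcript on the other side of the switch. The Tcf25 transcript lies in 3 exons at chr8:123388632-123390840 on the plus strand and has no base of its own. The Auts2 transcript lies in 3 exons at chr5:132030909-132050409 on the minus strand, all outside the gaining transcript. The Zfp618 transcript lies in 2 exons at chr4:63120400-63121428 on the plus strand, with 66 bases outside the losing transcript.
Tcf25, lost with C2 ceramide: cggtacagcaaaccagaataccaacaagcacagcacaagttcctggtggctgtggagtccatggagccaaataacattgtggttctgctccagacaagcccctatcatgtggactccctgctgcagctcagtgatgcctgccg
Auts2, lost with C2 ceramide: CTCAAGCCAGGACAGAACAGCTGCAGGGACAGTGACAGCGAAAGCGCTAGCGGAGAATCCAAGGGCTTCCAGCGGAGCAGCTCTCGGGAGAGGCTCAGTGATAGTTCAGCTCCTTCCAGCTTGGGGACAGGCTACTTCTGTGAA
Zfp618, gained with C2 ceramide: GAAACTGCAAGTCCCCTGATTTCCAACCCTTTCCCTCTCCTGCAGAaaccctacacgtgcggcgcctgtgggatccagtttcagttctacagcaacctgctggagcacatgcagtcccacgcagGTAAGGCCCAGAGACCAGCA

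**Figure D5:**
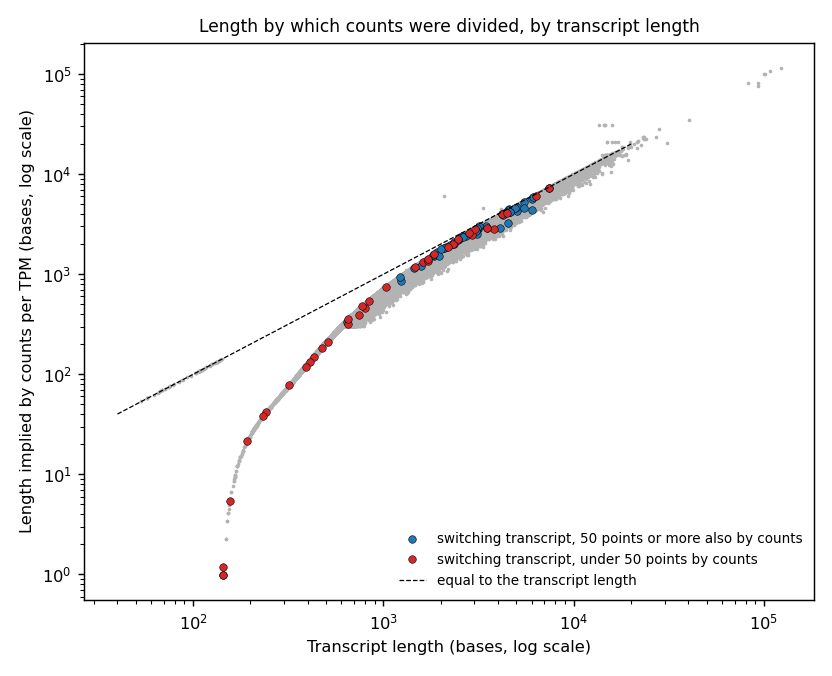
Length implied by counts per TPM against transcript length, both in bases on log scales, for all transcripts with counts in the C2 ceramide library (grey) and for the switching transcripts of the 85 genes (blue, at least 50 points also by counts, red, under 50 points). The shortest transcripts lie on the dashed line of equal length, then the implied length drops to about 1 base (1.19 for the Tcf25 transcript, taken from DMSO day 4) and climbs back towards the line for long transcripts.

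The same held for longer transcripts to a lesser degree. In Pkd1, which encodes polycystin-1, a 241-base transcript with 2.5 of 435.6 counts on DMSO day 4 held 59.0% of the TPM. In Ltbp3 a 156-base retained intron transcript with 1.0 count on DMSO day 4 held 70.9%. In Gm37494, a long non-coding RNA gene, a 430-base transcript with 2.7, 0 and 9.3 of 313, 347 and 485 counts held 62.5% with C2 ceramide. B4galt5, an enzyme that makes lactosylceramide, gained 32.3 counts in a 425-base transcript with C2 ceramide, and its 4210-base transcript, at 100% of both on DMSO day 4, then held 39.8% of TPM and 94.6% of counts. In Sik2, a salt-inducible kinase, a 476-base retained intron transcript with 0, 0 and 21 counts passed a 654-base one with 0, 16.7 and 0, out of 414.1, 407.8 and 368.2.

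Retained intron transcripts also took the lead with C2 ceramide on small counts in Arap2, Rev3l and Ppm1h. Arap2, a regulator of small GTPases, had 4.8 counts of a 320-base transcript with C2 ceramide and 0 in both DMSO libraries. Rev3l, the catalytic subunit of DNA polymerase zeta, had 26.2 counts of a 799-base one with C2 ceramide and likewise 0 with DMSO. Ppm1h, a protein phosphatase, had 10.4, 0 and 34.6 counts of a 750-base one, so DMSO day 3 also held some. In the other direction, Sh3bp2 lost a 212-base retained intron transcript with 3.7 counts on DMSO day 4, and the coding transcript had 42.7% of TPM and 97.0% of counts on DMSO day 4 and 100% of both with C2 ceramide. Pde10a, a cyclic nucleotide phosphodiesterase, lost a processed transcript of 2471 bases with 0, 95.7 and 0 counts. Zfp738 moved from a retained intron transcript with 12, 15 and 9 counts to a coding one with 14.5, 0 and 10.6.

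The gene totals moved less than the gene TPM. By gene TPM 13 switching genes were more than 2-fold higher with C2 ceramide than on DMSO day 4 and 13 more than 2-fold lower, or 15.3% each, against 3.09% and 3.33% of all genes counted. By CPM 5 were higher and 8 lower, or 5.88% and 9.41%, against 2.97% and 2.93%. The ratios by TPM and by counts differed by more than 2-fold in 18 of the 85 genes, against 27 of 11265, or 0.24%. The rule chose genes by TPM shares, so it favoured genes where a short transcript weighed heavily on the TPM of a single library. The TPM values beside all genes counted were thus partly set by the choice and are not a result. The median log2 ratio of the switching genes was 0.07 by TPM and 0.08 by CPM, against -0.02 and -0.01 for all genes counted.

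Zfp618 had the highest TPM ratio of the switching genes, a log2 ratio of 3.03, with a ratio of -0.58 by CPM (95% counting interval -0.81 to -0.35). Auts2 had the lowest, -2.59, with 0.05 by counts (-0.10 to 0.20), and Tcf25 had -2 by TPM with -0.08 by counts. The TPM ratio of these genes came from transcripts of 143 and 144 bases. Gm37494 had 1.86 by TPM and 0.47 by counts, B4galt5 1.53 and 0.29, and Ppm1h 2.18 and 1.15. Wnt5b, Apcdd1 and Ccno were lower on both scales, with log2 ratios of -2.55, -2.21 and -2.24 by TPM and -2.50, -2.33 and -1.76 by CPM. Grhl1, a grainyhead transcription factor, was higher on both, with 1.21 by TPM and 1.34 by CPM.

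The primitive streak and mesoderm markers moved between the same libraries. Their summed TPM over 9 genes was 90.6 on DMSO day 3, 927.0 on DMSO day 4 and 69.9 with C2 ceramide, and 5 of 5 counted genes were more than 2-fold lower with C2 ceramide. The 4 endoderm markers summed to 5.22, 654.0 and 5.05 TPM. The 9 pluripotency markers summed to 9950.8, 5714.2 and 10164.8, with 3 of 9 higher and 1 lower. Dppa5a made up 6352.9, 3734.9 and 7352.4 TPM of that sum. Dnmt3b (736, 383 and 365 TPM), Fgf5 (176, 253 and 86.6) and Otx2 (160, 145 and 100) were lowest with C2 ceramide. The other pluripotency markers were above DMSO day 4 with C2 ceramide. The 6 neural markers summed to 24.5, 20.3 and 49.2, and with C2 ceramide Nes held 20.7 TPM of the sum and Gbx2 17.2. Sox1 was at 0 in both DMSO libraries and at 0.524 TPM with C2 ceramide, and Pax6 was at 0.738, 0.43 and 0.921. Sox3 was at 9.72, 2.04 and 9.03 TPM and Neurod1 at 1.03, 0.22 and 0.799, so with C2 ceramide they were not above DMSO day 3. The 4 trophoblast markers summed to 5.68, 16.5 and 4.54 TPM, with a log2 ratio by TPM of -1.46 for Cdx2. The 3 feeder fibroblast markers summed to 1.91, 1.82 and 8.26 TPM, and Col1a2 made up 5.93 TPM of the sum with C2 ceramide. Col1a2 had 180 counts on DMSO day 4 and 936 with C2 ceramide, a log2 ratio of 2.36 by TPM. Postn went the other way, with 27 and 2 counts, and Thy1 had 14 and 22. The paper describes its E14K cells as independent of feeder cells. Sums for visceral endoderm (4 genes) and blood (3) markers ranged from 1.53 to 5.42 TPM. Among the markers of other cell types, Elf5, Ptprc and Postn were at 0 on DMSO day 3 and Ptprc was at 0 on DMSO day 4. Whether a change of cell types bears on the switches was not tested. Of the markers, 9 pluripotency, 5 streak and mesoderm, 3 neural, 1 trophoblast and 1 feeder gene had enough counts for the rule. None of these switched, against 0.755% of all genes counted. At that share few are to be found among so few genes, so the absence is not a result about the markers. The other markers could not meet the rule.

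Genes that control splicing were followed from a fixed list. Of 55 splicing regulators, such as SR and hnRNP proteins, 49 were counted, and none passed 2-fold in either direction by gene TPM or was a switching gene. Over all genes counted, 3.09% were more than 2-fold higher, 3.33% lower and 0.755% switching, so few are to be found in a list of this size, and the absence is not a result about the list. Their largest share change was 23.4 points and the median 1.9, against 2.9 over all genes counted. Most of these regulators had more than the median of 1105 counts, and genes with few counts switched more often. The medians are therefore not of like genes. Of 30 genes with well-known splice variants, such as Fgfr2, Cd44 and Numb, 28 were counted, 1 was higher and 1 lower by more than 2-fold, and none was a switching gene, which at the same shares over all genes counted is again not a result about the list. These genes had a largest share change of 22.5 points and a median of 4.6. Over all genes counted, 821, or 7.29%, changed by at least 20 points. After the values had been seen, 9 of the 85 switching genes, or 10.6%, were found to be named Zfp or Zbtb, against 3.04% of all genes counted and 5.7% of those with 100 to under 500 counts.

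The 50 point threshold divided genes of nearly equal change. Just inside it, Arap2 changed by 50.06 points, Zcchc12 by 50.21 and Tle6 by -50.93. Just outside it, Zfp109 changed by -49.97, Nipal3 by -49.9 and Gprin1 by -49.75. The day 3, DMSO day 4 and C2 ceramide shares were 18.5%, 31.2% and 81.4% for Zcchc12 and 35.6%, 100% and 50% for Zfp109.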

How the data were processed

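Per the labels and methods, cDNA was prepared by the SMART-Seq v4 protocol and the authors quantified reads with DRAGEN on GRCm38. They gave 55487 genes and 142699 transcripts. The TPM values deposited by the authors are corrected for length and depth. The expected counts, also deposited by the authors, are estimates per transcript or gene, not normalized and not always whole. Transcript estimates divide shared reads among annotated transcripts, so a share depends on the annotation and on the length used. The handling of strand is not given in the sources used here.

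Shares, count shares and log2 ratios were computed in Python 3.11.15 with pandas 2.3.3 and NumPy 2.4.6, intervals with SciPy 1.17.1 (Clopper-Pearson, 95%) on rounded counts, and figures with Matplotlib 3.10.9. No pseudocount was used in the main values. The implied length is count over TPM, scaled so that the shortest transcripts, which were divided by their own length, keep it. Structures and sequences came from GENCODE M21, which held 140751 of 142699 transcripts, 98.6%, with the same version, while the methods name a later release.

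With 1 library per condition no p-value was computed. The switching genes and lists were chosen with earlier results of these data known. Named genes were those with the most counts, the largest changes between well-counted coding transcripts, the extreme gene ratios, the neighbours of the threshold, the leading members of each day 3 class and of each coding change, and members of the lists. Others, such as Grhl1, Sema4a, Ltbp3, Taf9, Ppp1r26, Nptxr and Esrra, were named after their values were seen. Some genes are counted but not reported by name here. Alternatives were other share measures, thresholds, count minimums, pseudocounts and transcript sets.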

Additional observations from a re-analysis of the deposited data

How the results depend on the processing

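The 85 switching genes became 68 by the share of counts, 49 of them shared, and 48 where both shares of the same transcript had to change by 50 points, an alternative chosen after seeing the data. A threshold of 40 points gave 181 genes and 60 points 44. A minimum of 50 counts gave 198, of 500 counts 4, and no minimum 1197. Adding 0.1 TPM to every transcript left 40 and adding 1 TPM left 7. Protein-coding transcripts alone gave 110, leaving out those under 300 bases 76, and asking for different leading transcripts 84. Other alternatives chosen after seeing the data, at least 30 counts or at least 1000 bases for the switching transcript, left 65 each. The day 3 share was nearer DMSO day 4 in 43 of 85 genes by TPM, in 46 by counts, and in 1 of the 4 with at least 500 counts. The number of genes more than 2-fold higher with C2 ceramide was 13 by TPM, 10 with 0.1 TPM added, 7 with 1 TPM added and 5 by CPM, and the number lower was 13, 12, 9 and 8. The genes by CPM are not all among those by TPM. Of the genes named by the rule, 16 kept 50 points by counts and 15 did not, with no change of direction. No paired analysis was possible because each condition had 1 library.

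Single libraries leave counting error as the sole measured error, and differences between cultures or preparations were not measured. Estimates for transcripts that differ by a few bases have no stated error of assignment.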
